A study of Rattus norvegicus with 9 samples.

Results

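The genes described here were listed around the ATF4 program of amino acid supply. They are ATF4 and its partner transcription factors, and stress and feedback genes that ATF4 is reported to control. The others are enzymes that make serine, one-carbon units, asparagine, proline and cysteine, and cytosolic aminoacyl-tRNA synthetases. Being listed here does not by itself make a gene an ATF4 target. Members were taken by symbol from a list of 36 names, ignoring case, and kept where the mean over the 9 libraries was at least 1 FPKM, a level per transcript length that the depositors scaled to library size. The rule kept 35 of the 36 names, out of 11376 genes that passed the same filter. The member just inside the threshold was Pycr1 with a mean of 9.47 FPKM. Aldh18a1, which makes the first intermediate of proline synthesis, fell outside it, with means of 0.0275 and 0.124 FPKM under its 2 identifiers.

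RNA was sequenced from S31 cells, wild-type primary smooth muscle cells derived from small heart vessels of male Wistar Kyoto rats. All cultures were first deprived of serum for 48 h in DMEM with lactalbumin hydrolysate, and each of the 3 groups holds 3 libraries. Controls (columns LH-NS) were given growth-factor-free medium and harvested at 24 h, while the treated cells were given either growth factor at 25 ng/ml, rat PDGF-BB or human IGF-1 (both recombinant), renewed every 24 h where needed. The sources disagree on the treated sets: the records titled PDGF-BB, with harvest at 48 h, name the columns called IGF-NS, and the records titled IGF-1, with harvest at 24 h, name the columns called PDGF-NS. The sets are therefore called by their columns, and the values were not used to settle the question. In whichever set was harvested at 48 h, growth factor and harvest time cannot be told apart. Whether the libraries of a group are separate cultures is not stated in the sources. The p-values therefore reflect the spread among these samples alone, and that spread may be technical.

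The FPKM of a library summed to between 616765 and 748000, and 11047 to 11348 genes per library reached 1 FPKM. The summed level of 8 smooth muscle markers was 2594 to 3713 FPKM in control, 639 to 679 in the IGF-NS set, and 417 to 455 in the PDGF-NS set. The largest part of this sum was Tagln, at 1739.6 to 2698, 342 to 367 and 186 to 254 FPKM in these groups. Of these markers, Myh11, the smooth muscle myosin heavy chain, was low, at 1.31 to 2.60 FPKM in the controls and under 1 FPKM in each treated library. Des was 1.22 to 1.71 FPKM in controls, 0.152 to 0.426 in the IGF-NS set and 4.85 to 5.52 in the PDGF-NS set. The other markers of the list were lower in each PDGF-NS library than in each control. A list of 5 fibroblast markers summed to 321 to 439.6, 1912 to 2039 and 856 to 1333 FPKM in these groups. Most of it was Lum, at 276 to 395, 1733 to 1883 and 773 to 1261 FPKM. Thy1 of that list was 16.8 to 24.4, 16.3 to 26.4 and 12.8 to 19.6 FPKM. Pdgfra and Dpt were higher in each treated library than in each control, and Dcn was higher in each IGF-NS library. A list of 5 pericyte markers summed to 99.8 to 170.1, 129.9 to 141 and 159 to 182 FPKM. Rgs5 of that list was at 0 in all libraries, Abcc9 was 48.3 to 67.0 FPKM in controls and the IGF-NS set and 136 to 141 in the PDGF-NS set, and Notch3 was 42.1 to 91.0 in those first groups and 13.0 to 19.4 in the PDGF-NS set. A list of 6 cardiomyocyte markers summed to 10.5 to 23.1, 8.66 to 19.8 and 1.82 to 5.26 FPKM, most of it Tnnt2, at 9.73 to 21.2 FPKM in controls. The cardiac myosins Myh6 and Myh7 of that list were at 0 in all libraries, and 4 of the 6 stayed under 1 FPKM. All 5 endothelial markers stayed under 1 FPKM, with Cdh5 and Kdr at 0 in all libraries, as was the leukocyte marker Ptprc. A leukocyte and macrophage list summed to 0.133 to 0.481 FPKM in control, 0.124 to 1.32 in the IGF-NS set, and 1.76 to 9.41 in the PDGF-NS set. Cd68, a macrophage and lysosome marker, stood at 9.37 FPKM in PDGF-NS library 1 and at 1.39 and 2.13 in the other libraries of that set. The part of these marker differences in the results that follow was not tested. In bulk RNA, fewer cells that express a gene and less RNA per cell cannot be told apart.

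ATF4 is a basic leucine zipper transcription factor whose translation increases when the initiation factor eIF2 is phosphorylated, as happens when amino acids run short or proteins misfold. As a heterodimer with C/EBP proteins it binds C/EBP-ATF response elements near genes for amino acid synthesis, amino acid import and tRNA charging, and mTORC1, a kinase complex downstream of growth factors, also raises ATF4 levels. Because this control acts on translation, the mRNA level of Atf4 does not report the level of the ATF4 protein, which was not measured here.

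The promoters of members were searched for this element, because ATF4 is reported to control some of the members. RefSeq promoters of build GRCr8, 250 bases before to 50 bases after each start, were given for 32 of the 35 members, and Gars, Rars and Dars had no entry. The core TGATGNAA, on either strand, was found in 11 of 32 member promoters (34.4%), against 1332 of 33469 promoters of the same length (3.98%) and 731 of 21842 promoters of protein-coding genes (3.35%). The stricter form TGATGCAA, which the core includes, was found in 9 member promoters (28.1%), against 0.795% of all promoters and 0.728% of those of protein-coding genes. By role it was 7 of 15 synthetase promoters that held the core, 2 of 4 stress and feedback genes, 2 of 3 proline, cysteine and phosphoenolpyruvate enzymes, 0 of 6 serine, one-carbon and asparagine genes, and 0 of 4 transcription factors. The members were listed around reported ATF4 targets, so a higher share than in all promoters can follow from the choice of genes alone. It is given as a description, and the comparison promoters were not limited to genes that passed the FPKM filter. A match describes letters in a window and not a bound site, and a window with 0 matches says only that these letters are not in it. The sequences below are the stretches around the element in 6 members that also changed in at least 1 comparison, 5′ to 3′ on the gene's strand, with the element in capitals. The stretches of Iars, Tars and Nars end at the start site, those of Pycr1 and Chac1 end before it, and the element of Cars lies after it.
Pycr1, chr10:106420890-106420989, minus strand: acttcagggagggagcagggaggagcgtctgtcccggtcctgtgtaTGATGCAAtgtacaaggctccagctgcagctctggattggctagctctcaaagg
Chac1, chr3:126795918-126796017, plus strand: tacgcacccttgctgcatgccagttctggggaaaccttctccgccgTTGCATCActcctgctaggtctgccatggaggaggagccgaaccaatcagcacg
Iars, chr17:15193653-15193722, minus strand: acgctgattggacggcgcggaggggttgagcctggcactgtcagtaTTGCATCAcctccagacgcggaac
Cars, chr1:208225334-208225363, minus strand: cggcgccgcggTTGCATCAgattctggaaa
Tars, chr2:62114803-62114875, minus strand: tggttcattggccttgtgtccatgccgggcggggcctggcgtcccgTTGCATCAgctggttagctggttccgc
Nars, chr18:60275783-60275842, minus strand: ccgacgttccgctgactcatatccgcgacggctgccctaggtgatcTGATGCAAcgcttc
All 6 hold the strict form. Pycr1 and Nars carry it in the direction of the gene and the other 4 in reverse.

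**Figure D1:**
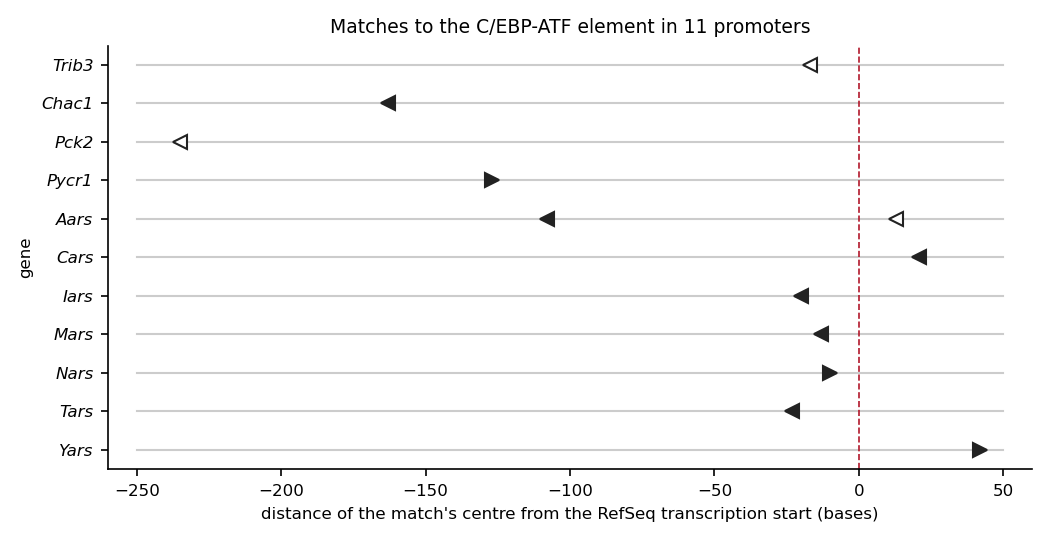
Position of each match in the 11 member promoters that held the core, as the distance in bases of the match's centre from the RefSeq start (dashed line); filled triangles are TGATGCAA, open ones another TGATGNAA, and they point right where the match reads along the gene's strand. Matches of Iars, Mars, Nars, Tars and Trib3 lie between −23 and −10, those of Pycr1 and Chac1 at −127 and −163, and Aars holds 2.

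The members did not move as a block. In the IGF-NS set 12 of 35 rose against control and 0 fell, while in the PDGF-NS set 3 rose and 5 fell, and PDGF-NS libraries were lower than IGF-NS libraries for 10 members and higher for 2. The genes higher in IGF-NS were the stress genes Ddit3, Ddit4 and Sesn2, the synthesis enzymes Phgdh, Psat1, Asns and Pycr1, and the synthetases Eprs, Lars, Nars, Kars and Dars. Those higher in PDGF-NS were Ddit3, Ddit4 and Qars, and those lower were Atf4, Chac1, Cars, Iars and Vars. A total of 14 members were called in 0 of the 3 comparisons. The matching share of all genes is not given here, so this count does not show whether 14 is many or few. Calls are from limma on log2(FPKM + 1), with p-values adjusted by the Benjamini-Hochberg method over all 11376 genes and a threshold of 0.05. Fold changes are differences on this scale, which understates the change of low genes.

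In IGF-NS minus control 34.3% of members were called and 24.9% of all genes, 17.4% of them higher and 7.48% lower. The median difference of the members was 0.29, with 28 of 35 above 0, beside a median of 0.15 over all genes. Beside the 0 members that fell, 1 was lower at an unadjusted p under 0.05 in limma, and limma without the variance trend also gave 0. In PDGF-NS minus control 22.9% of members were called and 31% of all genes, 20.7% higher and 10.2% lower, and the medians were −0.14 for the members and 0.13 for all genes. In PDGF-NS minus IGF-NS 34.3% of members were called and 15.9% of all genes, 8.33% higher and 7.55% lower, with medians of −0.43 and −0.02. The comparisons with control share the same control libraries, and both treated sets enter the third. The groups did not overlap for 13, 14 and 20 of the 35 members in these 3 comparisons (37.1%, 40% and 57.1%), beside 39%, 48.6% and 36.3% of all genes without overlap and the 24.9%, 31% and 15.9% called. In both comparisons with control the members' share without overlap was therefore below that of all genes.

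**Figure D2:**
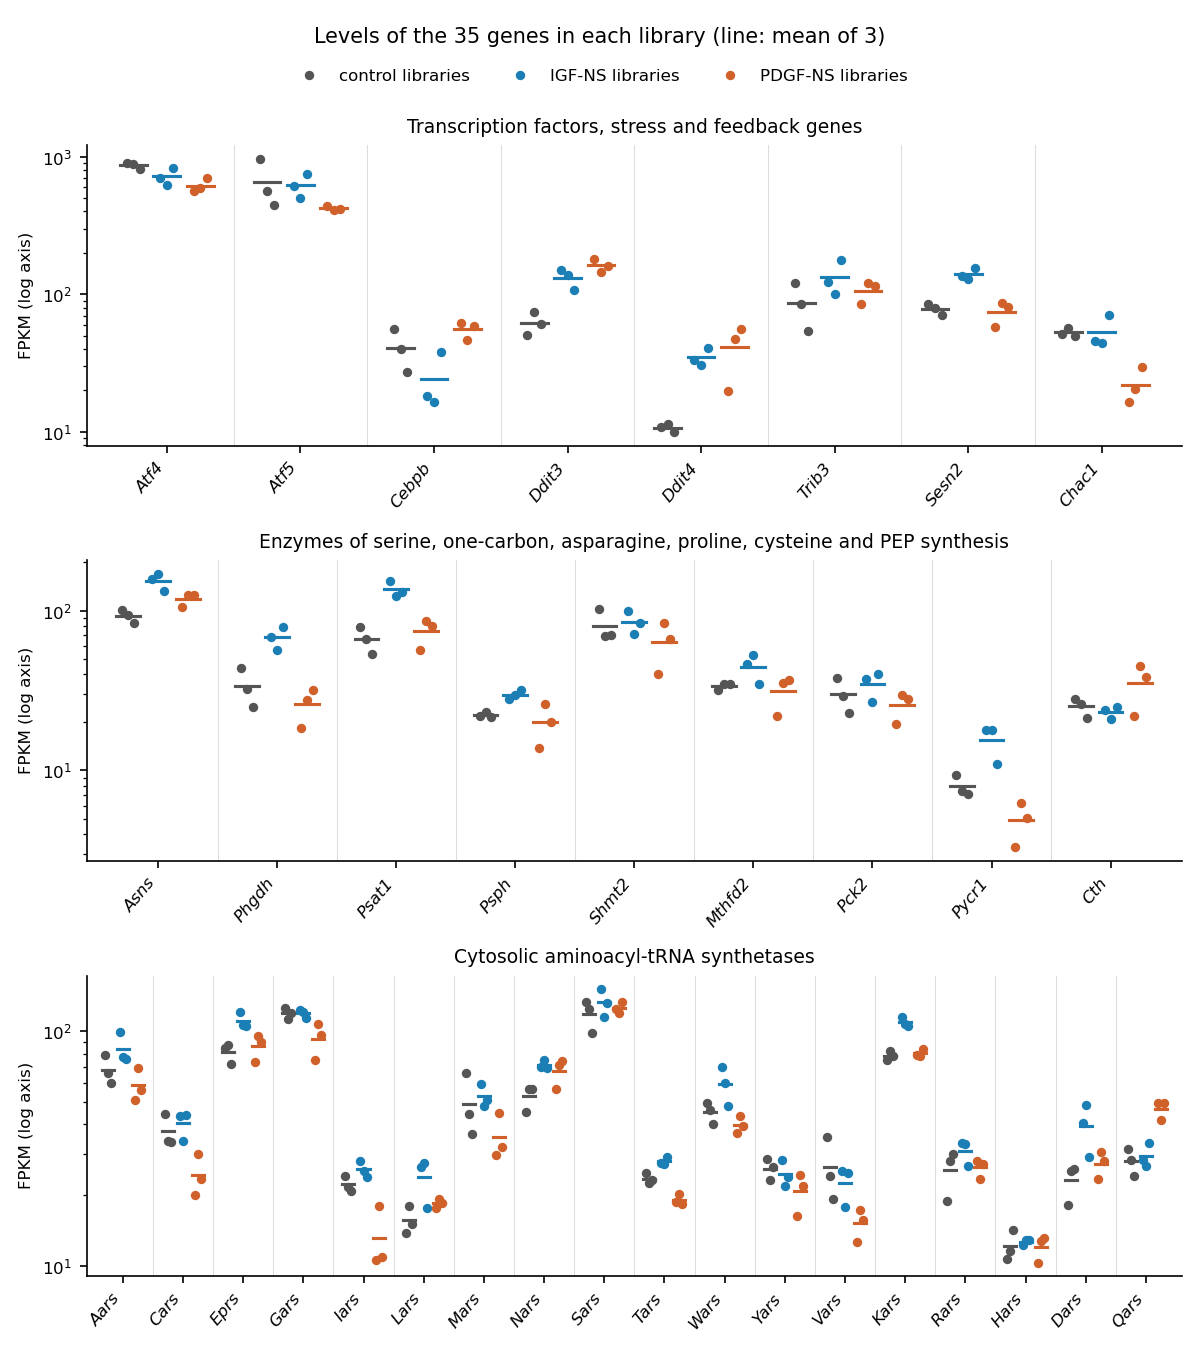
FPKM of the 35 genes (log axis) in each of the 9 libraries, with points for libraries and a line at the mean of 3. Phgdh, Psat1, Sesn2 and Pycr1 stand higher in IGF-NS libraries than in either other group, and Chac1 and Iars stand lower in PDGF-NS libraries.

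Scaling decided part of these calls. The median over all genes moved from 0.15 to 0.01 in IGF-NS minus control when libraries were scaled to a common median ratio, and from 0.13 to 0.01 in PDGF-NS minus control. Under that scaling, members called in IGF-NS minus control were 6 higher and 1 lower (Atf4, −0.44, limma adjusted p = 0.034), and all genes split into 1137 higher and 1229 lower in place of 1976 and 851. In PDGF-NS minus control the same scaling gave 3 members higher and 8 lower, and 1768 and 1678 of all genes in place of 2355 and 1166. Scaling to a common sum gave 2 members higher and 15 lower in PDGF-NS minus IGF-NS, and 737 and 1480 of all genes in place of 948 and 859. The calls that held under each of the 20 alternatives were those of Ddit3, Ddit4, Sesn2, Asns, Phgdh and Psat1 in IGF-NS minus control, Ddit3, Ddit4, Chac1 and Qars in PDGF-NS minus control, and Sesn2, Chac1, Phgdh, Pycr1, Iars and Tars in PDGF-NS minus IGF-NS. Under these alternatives 0 called members reversed direction.

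**Figure D3:**
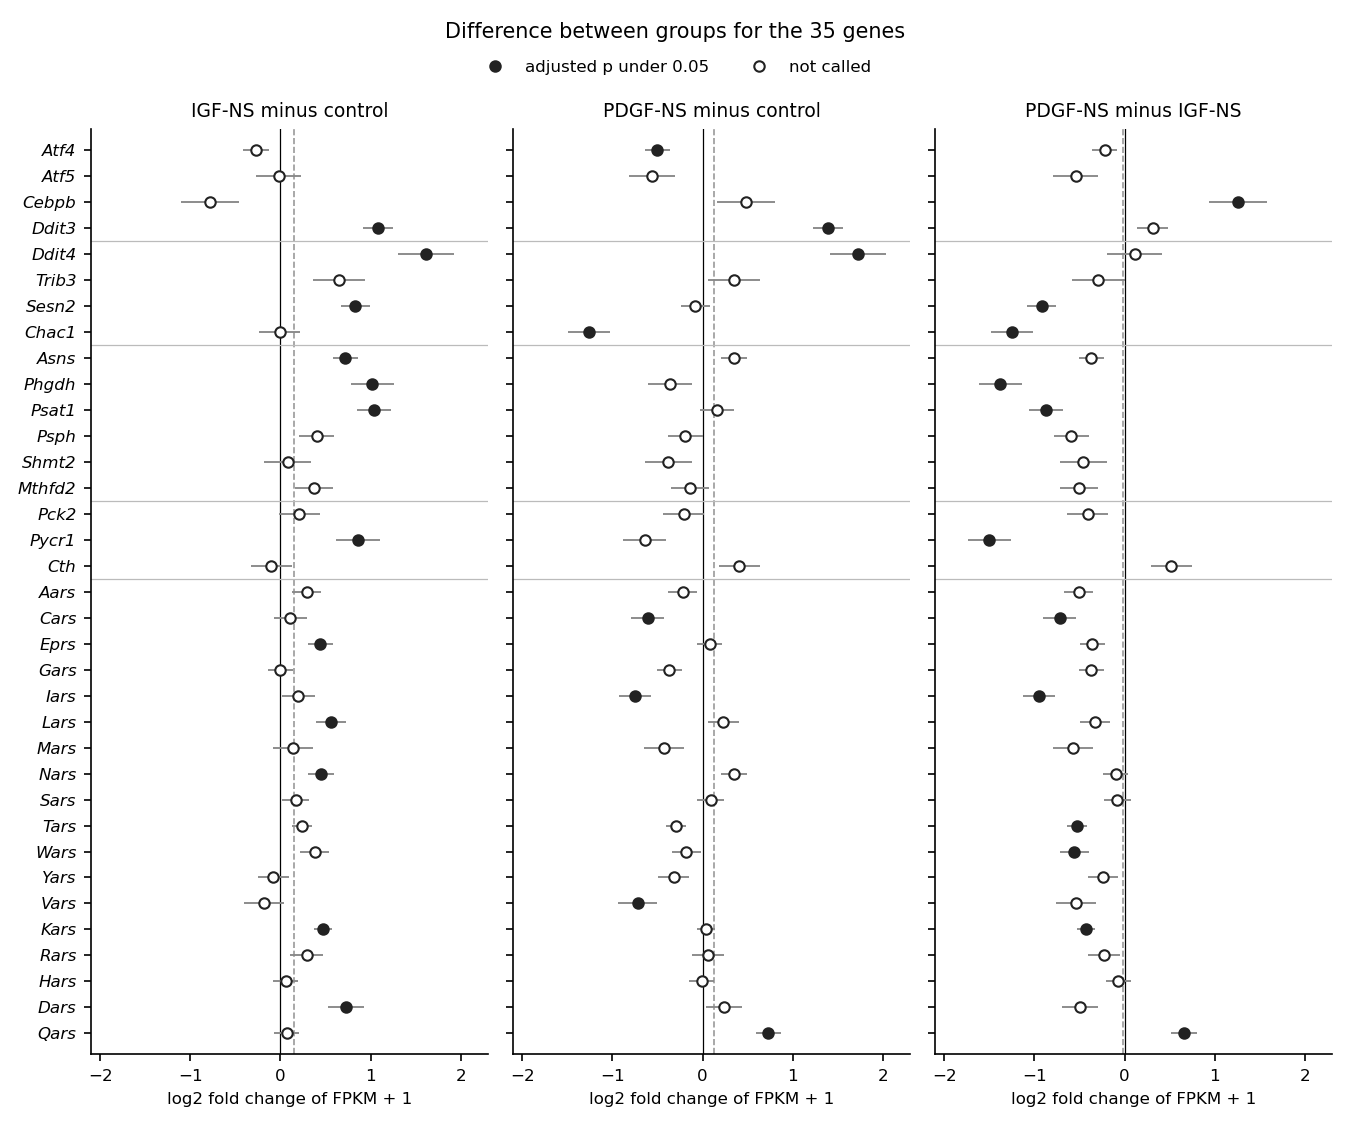
Difference of each gene on the log2(FPKM + 1) scale in the 3 comparisons, with bars of 1 standard error from limma. Filled points have an adjusted p under 0.05, and the dashed line is the median of all genes (0.15, 0.13 and −0.02).

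Atf4 (ENSRNOG00000017801) was the most abundant member, and its mRNA was lower, not higher, in the PDGF-NS set. Its level was 898, 882 and 818 FPKM in control libraries 1 to 3, 704, 626 and 828 in IGF-NS libraries and 561, 589 and 696 in PDGF-NS libraries. All PDGF-NS libraries lay under all controls, and IGF-NS library 3 lay above control library 3. The difference was −0.50 ± 0.14 (SE) in PDGF-NS minus control (limma adjusted p = 0.024) and −0.27 ± 0.14 in IGF-NS minus control (adjusted p = 0.19). The first call was lost without control library 1 or 2 or PDGF-NS library 1 or 2, at adjusted p of 0.053 to 0.079.

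The partners of ATF4 went separate ways. Ddit3 (ENSRNOG00000006789), the stress factor CHOP that dimerises with C/EBP proteins and ATF4, stood at 50.6, 73.8 and 61.0 FPKM in controls, 151, 137 and 107 in the IGF-NS set, and 181, 146 and 161 in the PDGF-NS set. Each treated library was above each control. Ddit3 rose by 1.08 ± 0.17 in IGF-NS (adjusted p = 0.0022, limma) and by 1.39 ± 0.17 in PDGF-NS (adjusted p = 0.00028), to 2.13 and 2.63 times the control mean. Cebpb, a C/EBP protein of differentiation and inflammation, was 55.6, 40.2 and 27.1 FPKM in controls, 18.1, 16.4 and 37.7 in the IGF-NS set, and 61.5, 46.5 and 58.3 in the PDGF-NS set. The treated sets did not overlap, and controls overlapped both. Cebpb was higher in PDGF-NS than in IGF-NS by 1.26 ± 0.32 (limma adjusted p = 0.024), a call lost without IGF-NS library 1 or 2 or PDGF-NS library 1 or 3 (0.08 to 0.09). Without IGF-NS library 3 it was called lower in IGF-NS than in control (−1.14, adjusted p = 0.014). Atf5, an ATF4-related factor, ranged from 443 to 965 FPKM in controls and 408 to 442 in PDGF-NS libraries, a difference of −0.56 with a 95% interval of −1.12 to 0.01 that was not called. Without control library 3 Atf5 was called lower in PDGF-NS than in control (adjusted p = 0.038), and without control library 1 lower than in IGF-NS (0.046).

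Of the 4 stress and feedback genes, 2 rose in IGF-NS, and 1 rose and 1 fell in PDGF-NS. The share called was 50% in each comparison, beside 24.9% and 31% of all genes. Ddit4 (ENSRNOG00000000577), which encodes the mTORC1 inhibitor REDD1, had the largest rise of the members in both treated sets. Its level was 10.9, 11.4 and 9.91 FPKM in controls, 33.2, 30.8 and 40.9 in the IGF-NS set, and 19.9, 47.6 and 55.6 in the PDGF-NS set. Controls were tightly grouped and lay under each treated library, while PDGF-NS library 1 stood apart from its set. The rise was 1.61 ± 0.31 in IGF-NS (limma adjusted p = 0.0052) and 1.72 ± 0.31 in PDGF-NS (adjusted p = 0.0024), and the difference between treated sets was 0.11 with a 95% interval of −0.58 to 0.80.

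Sesn2 and Chac1 separated the treated sets. Sesn2 (ENSRNOG00000042785), a leucine-binding sestrin that restrains mTORC1, was 84.3, 79.6 and 71.0 FPKM in controls, 136, 129.8 and 156 in the IGF-NS set, and 57.5, 85.7 and 81.3 in the PDGF-NS set. IGF-NS libraries lay above all others. Sesn2 rose by 0.83 ± 0.16 against control (limma adjusted p = 0.0054) and was −0.92 ± 0.16 in PDGF-NS minus IGF-NS (adjusted p = 0.0039). Chac1 (ENSRNOG00000014387), an enzyme that breaks down glutathione, was 51.5, 57.1 and 49.7 FPKM in controls, 46.0, 44.1 and 70.5 in the IGF-NS set, and 16.3, 20.5 and 29.3 in the PDGF-NS set. PDGF-NS libraries were lower than all 6 others. Chac1, whose promoter carries the element shown above, fell by 1.26 ± 0.23 against control (limma adjusted p = 0.0023) and was −1.25 ± 0.23 in PDGF-NS minus IGF-NS (adjusted p = 0.0042). Trib3, a pseudokinase that binds ATF4 and restrains it, was not called: its controls ran from 54.1 to 121 FPKM, and IGF-NS minus control was 0.65 with a 95% interval of −0.01 to 1.30. Without control library 1 the rise of Trib3 in IGF-NS was called (adjusted p = 0.038).

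Phgdh, Psat1 and Asns, enzymes that make serine and asparagine, were higher in IGF-NS. Of the 6 genes in this role, 3 rose in IGF-NS, 0 were called in PDGF-NS minus control, and 2 were lower in PDGF-NS than in IGF-NS. The shares called were 50%, 0% and 33.3%, beside 24.9%, 31% and 15.9% of all genes. The median difference of the 6 was 0.56, −0.16 and −0.55 in these comparisons. The 3 rises were called under each of the 20 alternatives. In PDGF-NS minus control, limma called 0 of 6 in each alternative too, and 1 (Asns, higher) passed an unadjusted p of 0.05.

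Phgdh, Psat1 and Psph catalyse the steps from the glycolytic intermediate 3-phosphoglycerate to serine. Phgdh (ENSRNOG00000019328), the entry enzyme, was 43.9, 32.1 and 24.9 FPKM in controls, 68.6, 56.9 and 78.8 in the IGF-NS set, and 18.5, 27.6 and 31.8 in the PDGF-NS set. Each IGF-NS library was above each control and each PDGF-NS library, and the last groups overlapped. It rose to 2.03 times the control mean in IGF-NS (1.02 ± 0.24, limma adjusted p = 0.013) and was −1.38 ± 0.24 in PDGF-NS minus IGF-NS (adjusted p = 0.0036). Psat1 (ENSRNOG00000013971), the aminotransferase of the second step, was 79.0, 66.1 and 53.4 FPKM in controls, 153, 124 and 129.8 in the IGF-NS set, and 56.4, 86.4 and 80.4 in the PDGF-NS set. The pattern over groups was that of Phgdh. Psat1 rose by 1.04 ± 0.19 in IGF-NS (limma adjusted p = 0.0042) and was −0.87 ± 0.19 in PDGF-NS minus IGF-NS (adjusted p = 0.012, and 0.053 without IGF-NS library 1).

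Psph, the phosphatase of the last step, stayed under the threshold in all 3 comparisons. It was 21.9, 23.1 and 21.6 FPKM in controls, 27.9, 29.6 and 31.6 in the IGF-NS set, and 13.8, 26.1 and 20.0 in the PDGF-NS set. The IGF-NS libraries lay above all others, and the controls lay within the range of the PDGF-NS set. The difference was 0.40 (95% interval −0.02 to 0.83) in IGF-NS minus control and −0.59 (−1.02 to −0.17) in PDGF-NS minus IGF-NS, with limma adjusted p of 0.15 and 0.063. The latter was called without PDGF-NS library 2 (adjusted p = 0.017), under quantile normalization (0.046) and under common sum scaling (0.022).

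Shmt2 and Mthfd2, mitochondrial enzymes that carry serine into one-carbon metabolism, were not called in any comparison. Shmt2, which splits serine into glycine and a one-carbon unit, was 102, 69.5 and 69.8 FPKM in controls, 99.1, 70.8 and 84.0 in the IGF-NS set, and 39.8, 83.7 and 66.7 in the PDGF-NS set. The groups overlapped, and IGF-NS minus control was 0.08 with a 95% interval of −0.50 to 0.67. Mthfd2, the mitochondrial folate dehydrogenase and cyclohydrolase, averaged 33.8 ± 1.65, 44.5 ± 8.90 and 31.3 ± 8.10 FPKM (SD, n = 3) in control, IGF-NS and PDGF-NS libraries. Its difference in IGF-NS minus control was 0.37 (95% interval −0.09 to 0.83).

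Asns (ENSRNOG00000007546), asparagine synthetase, differed from the serine genes in the PDGF-NS set. It was 100.3, 93.3 and 84.1 FPKM in controls, 158, 169 and 133 in the IGF-NS set, and 105, 125 and 125 in the PDGF-NS set. The 3 groups did not overlap, with PDGF-NS between the others. Asns rose by 0.72 ± 0.14 in IGF-NS (limma adjusted p = 0.0046), and was 0.35 ± 0.14 in PDGF-NS minus control (adjusted p = 0.075) and −0.37 ± 0.14 in PDGF-NS minus IGF-NS (adjusted p = 0.096, and 0.035 under common sum scaling).

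**Figure D4:**
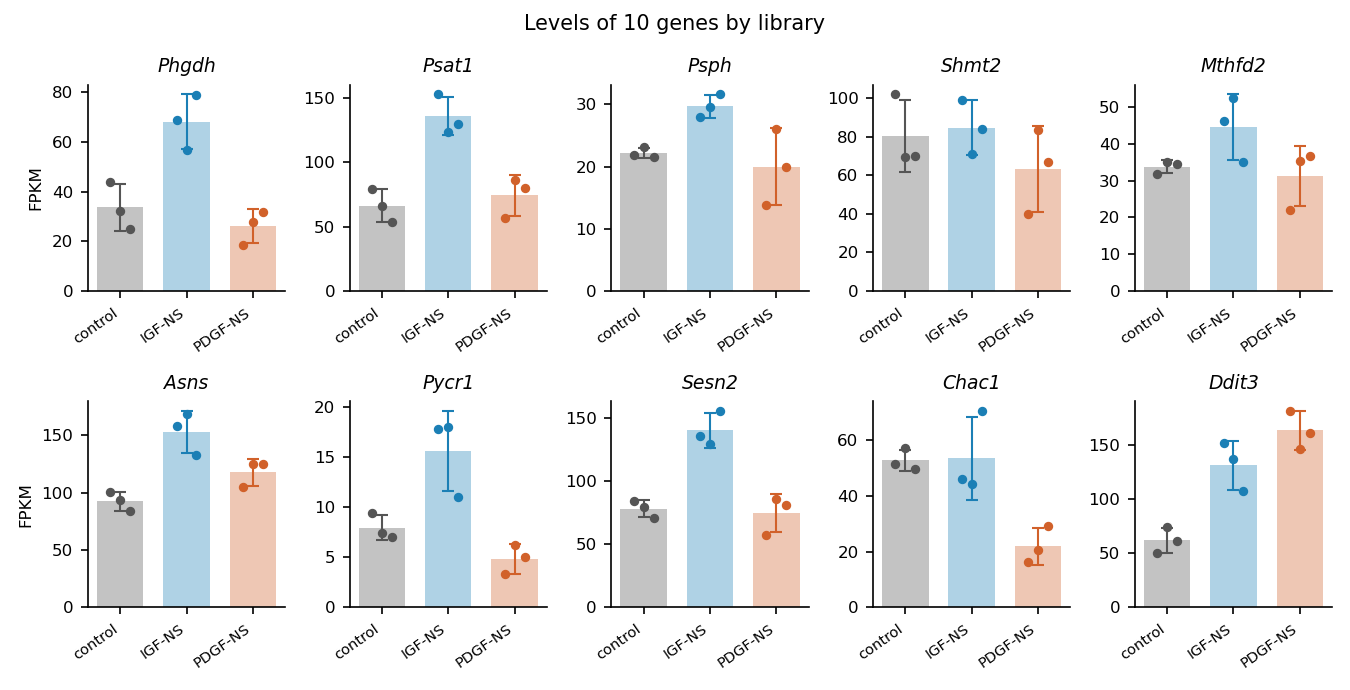
FPKM of 10 genes in the 3 groups, with points for libraries, bars for the mean and error bars for 1 SD (n = 3). Phgdh, Psat1 and Sesn2 are highest in each IGF-NS library, and PDGF-NS library 1, the leftmost orange point, is the lowest of its group in all but Ddit3.

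Among the proline, cysteine and phosphoenolpyruvate enzymes only Pycr1 was called. Pycr1 (ENSRNOG00000036682), the mitochondrial reductase of the last step to proline, was 9.42, 7.40 and 7.08 FPKM in controls, 17.8, 18.0 and 11.0 in the IGF-NS set, and 3.30, 6.25 and 5.02 in the PDGF-NS set. The 3 groups did not overlap, with IGF-NS highest and PDGF-NS lowest. Its difference of −1.50 ± 0.24 in PDGF-NS minus IGF-NS was the largest fall of a member in any comparison (limma adjusted p = 0.002). The rise of Pycr1 in IGF-NS against control was 0.86 ± 0.24 (adjusted p = 0.024), and was lost without control library 2 or 3 or IGF-NS library 1 or 2 (0.067 to 0.092) and under median ratio scaling (0.055) and quantile normalization (0.052). In PDGF-NS minus control it was −0.64 ± 0.24 (adjusted p = 0.065), called as lower under the 3 other scalings (0.03 to 0.039) and without IGF-NS library 3 or PDGF-NS library 2.

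Cth and Pck2 did not follow Pycr1. Cth, which releases cysteine from cystathionine, was 27.8, 26.0 and 21.4 FPKM in controls, 23.8, 21.0 and 24.8 in the IGF-NS set, and 21.8, 45.0 and 38.2 in the PDGF-NS set. PDGF-NS library 1 lay among the controls and the other libraries of that set above them, and the difference from control was 0.41 (95% interval −0.10 to 0.93). Without that library Cth was called higher in PDGF-NS than in control (limma adjusted p = 0.012) and than in IGF-NS (0.01). Pck2, the mitochondrial enzyme that makes phosphoenolpyruvate, averaged 30.1 ± 7.59, 34.7 ± 7.18 and 25.8 ± 5.48 FPKM (SD, n = 3) in control, IGF-NS and PDGF-NS libraries, and was not called.

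Aminoacyl-tRNA synthetases load each tRNA with its amino acid. Of the 18 cytosolic members, 5 rose in IGF-NS, 1 rose and 3 fell in PDGF-NS, and between treated sets 1 was higher and 5 were lower in PDGF-NS. The shares called were 27.8%, 22.2% and 33.3%, beside 24.9%, 31% and 15.9% of all genes. The median difference of the 18 was 0.22, −0.09 and −0.40, and 16, 8 and 1 of 18 lay above 0. In IGF-NS minus control the 5 rises became 0 with median ratio scaling, 1 after quantile normalization, and 1 without control library 1 or IGF-NS library 1 or 2. The 3 falls in PDGF-NS minus control ran from 0 without PDGF-NS library 3 to 5 under each of the other scalings, and the 5 lower calls in PDGF-NS minus IGF-NS from 2 without IGF-NS library 1 or PDGF-NS library 1 or 3 to 8 under common sum scaling.

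Of the 5 synthetases that rose, Kars lost its call under the fewest alternatives. Kars, for lysine, was 75.1, 82.0 and 78.1 FPKM in controls, 115, 107 and 105 in the IGF-NS set, and 79.1, 78.6 and 84.3 in the PDGF-NS set. IGF-NS libraries were above all others. Kars rose by 0.47 ± 0.10 (limma adjusted p = 0.0099), a call lost under median ratio scaling alone (0.31, adjusted p = 0.054), and was −0.43 ± 0.10 in PDGF-NS minus IGF-NS (adjusted p = 0.02, and 0.058 to 0.085 without IGF-NS library 1 or any PDGF-NS library).

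The other rises in IGF-NS were smaller against their spread. Dars, for aspartate, was 18.1, 25.3 and 25.7 FPKM in controls and 40.4, 48.5 and 29.1 in IGF-NS libraries, a rise of 0.73 ± 0.20 (limma adjusted p = 0.027). Eprs, which charges tRNAs for glutamate and proline, averaged 81.3 ± 8.01 FPKM in controls and 110.5 ± 8.66 in IGF-NS libraries (SD, n = 3), a rise of 0.44 (adjusted p = 0.04). Nars, for asparagine, with an element 10 bases before its start (centre at −10), was 45.0, 56.5 and 56.5 FPKM in controls and 70.6, 75.3 and 69.8 in IGF-NS libraries, a rise of 0.45 (adjusted p = 0.045). These groups did not overlap for Dars, Eprs and Nars. Lars, for leucine, was called (0.56, adjusted p = 0.039) although IGF-NS library 3, at 17.6 FPKM, lay under control library 2, at 17.9. Leaving out 1 library ended the call of Dars in 3 of 9 fits, Eprs in 6, Lars in 7 and Nars in 8, with adjusted p up to 0.14. The libraries concerned were control 1 and IGF-NS 1 and 2 for Dars, these 3 with control 2 and 3 and PDGF-NS 3 for Eprs, all but control 2 and IGF-NS 3 for Lars, and all but PDGF-NS 1 for Nars. In PDGF-NS minus IGF-NS these 4 were not called with all libraries (adjusted p of 0.14 for Dars, 0.11 for Eprs, 0.24 for Lars and 0.72 for Nars), so a difference between the treated sets was not shown for them. Dars and Lars were called as lower there without IGF-NS library 3 (0.041 and 0.039), and Eprs under common sum scaling (0.027).

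Iars, Cars and Vars were lower in PDGF-NS libraries. Iars, for isoleucine, was 24.1, 21.7 and 20.8 FPKM in controls, 27.9, 25.3 and 23.8 in the IGF-NS set, and 10.6, 17.9 and 10.9 in the PDGF-NS set. PDGF-NS libraries lay under all 6 others. Iars fell by 0.75 ± 0.18 against control (limma adjusted p = 0.012, and 0.055 without PDGF-NS library 3) and was −0.95 ± 0.18 in PDGF-NS minus IGF-NS (adjusted p = 0.0064). Cars, for cysteine, was 44.5, 34.0 and 33.8 FPKM in controls, 43.3, 33.9 and 44.0 in the IGF-NS set, and 19.9, 29.8 and 23.3 in the PDGF-NS set. It fell by 0.61 ± 0.18 against control (limma adjusted p = 0.027) and was −0.72 ± 0.18 in PDGF-NS minus IGF-NS (adjusted p = 0.023). The first of these calls was lost without control library 1 or PDGF-NS library 1 or 3 (0.078 to 0.095), the second without IGF-NS library 1 or 3 or PDGF-NS library 1 or 3 (0.064 to 0.083). Vars, for valine, was 35.3, 24.2 and 19.2 FPKM in controls and 12.6, 17.3 and 15.6 in PDGF-NS libraries, a difference of −0.72 ± 0.22 (adjusted p = 0.035) that was lost without control library 1 or 2 or PDGF-NS library 1 or 3 (0.065 to 0.12).

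Tars and Wars differed between the treated sets, with the control mean of each gene between them. Tars, for threonine, was 24.7, 22.5 and 23.2 FPKM in controls, 27.5, 27.0 and 29.0 in the IGF-NS set, and 18.6, 20.1 and 18.3 in the PDGF-NS set. The 3 groups did not overlap, and the spread within each was small. Tars was −0.53 ± 0.11 in PDGF-NS minus IGF-NS (limma adjusted p = 0.0082), 0.24 ± 0.11 in IGF-NS minus control (adjusted p = 0.14) and −0.29 ± 0.11 in PDGF-NS minus control (adjusted p = 0.063, and 0.014 to 0.018 under the 3 other scalings). Wars, for tryptophan, was 49.3, 45.9 and 40.2 FPKM in controls, 70.6, 60.3 and 47.9 in the IGF-NS set, and 36.6, 43.4 and 39.4 in the PDGF-NS set. The controls of Wars overlapped both treated sets. Its difference in PDGF-NS minus IGF-NS was −0.56 ± 0.16 (limma adjusted p = 0.037). The call was lost in 6 of 9 fits with 1 library left out (control 2, IGF-NS 1 or 2, or any PDGF-NS library), and without IGF-NS library 3 Wars was called higher in IGF-NS than in control (adjusted p = 0.028).

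In PDGF-NS minus IGF-NS, Qars was the 1 synthetase of 18 above 0. Qars (ENSRNOG00000043447), for glutamine, was 31.3, 28.1 and 24.2 FPKM in controls, 28.2, 26.6 and 33.2 in the IGF-NS set, and 49.5, 41.6 and 49.2 in the PDGF-NS set. All PDGF-NS libraries lay above all others. Qars rose by 0.73 ± 0.14 against control (limma adjusted p = 0.0034) and by 0.66 ± 0.14 against IGF-NS (adjusted p = 0.011, and 0.054 without PDGF-NS library 3). It was the only synthetase of the 18 called higher in PDGF-NS libraries, in either comparison, with all 9 libraries.

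The other 7 synthetases, Aars, Gars, Mars, Sars, Yars, Rars and Hars, were called in 0 of 3 comparisons with all libraries. Hars, for histidine, varied least between groups, with means of 12.1 ± 1.84, 12.6 ± 0.344 and 12.0 ± 1.54 FPKM (SD, n = 3) in control, IGF-NS and PDGF-NS libraries. Sars, for serine, averaged 118, 133 and 125 FPKM, with differences of 0.17 (95% interval −0.16 to 0.50) and 0.09 (−0.24 to 0.42) against control. Rars, for arginine, ranged from 18.8 to 29.8 FPKM in controls, 26.5 to 33.3 in IGF-NS libraries and 23.5 to 27.9 in PDGF-NS libraries. Gars, for glycine, averaged 119 ± 6.07 FPKM in controls and 119 ± 4.70 in IGF-NS libraries and was 75.4, 107 and 96.1 in PDGF-NS libraries. PDGF-NS libraries of Gars lay under all others (−0.37, limma adjusted p = 0.069 against control), and it was called as lower there under the 3 other scalings (0.016 to 0.024) and without PDGF-NS library 2 (0.042). Aars, Mars and Yars, for alanine, methionine and tyrosine, hold the element and were −0.51, −0.57 and −0.24 in PDGF-NS minus IGF-NS, with adjusted p of 0.061, 0.11 and 0.38. Aars was called there without control library 1 or PDGF-NS library 2 (0.043 and 0.049) and under quantile normalization and common sum scaling (0.033 and 0.022), and Mars without control library 1 (0.044). Of the 10 members lower in PDGF-NS than in IGF-NS with a promoter entry, 5 held the core, as did 6 of the 22 others.

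One library of the PDGF-NS set was the lowest of its group for many members. PDGF-NS library 1 was the lowest of its group in 27 of 35 members, library 2 in 7 and library 3 in 1, and Shmt2 and Phgdh are examples given above. Among controls, library 1 was the highest in 23 members and library 3 the lowest in 23. These ranks were counted over the members alone, so they do not show whether other genes rank alike. The FPKM of all genes summed to 687686, 704262 and 748000 in PDGF-NS libraries 1 to 3. In control libraries 1 to 3 the sums were 632930, 655517 and 647294. Read depth relative to control library 1 was estimated from ratios of low FPKM values. It was 0.85, 1.33 and 1.26 in PDGF-NS libraries 1 to 3, and 1.00, 0.66 and 0.77 in control libraries 1 to 3. Whether depth plays a part in these ranks was not tested. Without PDGF-NS library 1 the median of the members in PDGF-NS minus control was 0.04 in place of −0.14, with 5 members higher (Nars and Cth joined, at limma adjusted p of 0.038 and 0.012) and 2 lower. In PDGF-NS minus IGF-NS the median was then −0.28. Members lower in PDGF-NS than control were also 2 without control library 1 or PDGF-NS library 3, and 3 without control library 2.

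Beyond the members, 117 genes of related lists were tested. Of these 19 rose and 10 fell in IGF-NS, 19 rose and 10 fell in PDGF-NS, and 10 were higher and 14 lower in PDGF-NS than in IGF-NS. That is 24.8%, 24.8% and 20.5% of the list, beside 24.9%, 31% and 15.9% of all genes, and medians of 0.06, 0.02 and −0.10. Under median ratio scaling the first pair of counts became 16 and 17 and the second 17 and 18, and under common sum scaling the third became 6 and 20.

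Of 10 amino acid transporters reported as ATF4 targets, 1 rose and 2 fell in IGF-NS minus control, beside 17.4% of all genes higher and 7.48% lower, with a median of −0.09 and 5 of 10 above 0. For PDGF-NS minus control, 0 rose and 3 fell, beside 20.7% and 10.2% of all genes, with a median of −0.18 and 2 of 10 above 0. At an unadjusted p under 0.05 in limma, 0 were higher and 4 lower in the latter, and limma without the variance trend also called 0 and 3. Slc7a11, the cystine-glutamate exchanger, was 1.07, 0.989 and 0.926 FPKM in controls, 2.55, 2.67 and 2.48 in the IGF-NS set, and 1.21, 1.41 and 1.20 in the PDGF-NS set, a rise of 0.84 in IGF-NS (limma adjusted p = 0.0043), and of 1.29 with a pseudocount of 0.1 and 0.34 with 5. Slc7a1, the cationic amino acid transporter, fell in both sets, from 43.8, 28.0 and 33.8 FPKM in controls to 13.3, 13.8 and 16.7 in the IGF-NS set, and 6.32, 9.26 and 7.43 in the PDGF-NS set (−1.20 and −2.05, adjusted p = 0.0019 and 4.1e-05). Slc7a5, the large neutral amino acid transporter, fell by 0.90 in PDGF-NS (adjusted p = 0.021, and 0.063 without control library 1), or by 0.57 without PDGF-NS library 1, and was 0.10 in IGF-NS minus control (adjusted p = 0.81).

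Of the 18 other reported ATF4 targets, 3 rose and 1 fell in IGF-NS and 4 rose and 1 fell in PDGF-NS. The shares called were 22.2% and 27.8%, beside 24.9% and 31% of all genes. Gpt2, a mitochondrial alanine aminotransferase, rose in both, from 14.7, 15.7 and 14.0 FPKM to 43.6, 36.2 and 37.5 and to 25.6, 39.0 and 28.0 (1.34 and 0.99, limma adjusted p = 0.00044 and 0.0013). Xpot, the tRNA exporter, rose by 0.64 in IGF-NS and was −0.74 in PDGF-NS minus IGF-NS (adjusted p = 0.012 and 0.0078). Vldlr, a lipoprotein receptor, fell in both sets (−0.83 and −1.32, adjusted p = 0.0027 and 0.00011). Atf3 and Cebpg, stress-induced bZIP factors, and Ppp1r15a, the inducible eIF2 phosphatase subunit, were called in 0 of 3 comparisons each. Atf3 was −1.04 in IGF-NS minus control (adjusted p = 0.059), and was called there under the 3 other scalings, with only the groups compared, and without control library 2 or PDGF-NS library 1 (0.02 to 0.048 in all). Without PDGF-NS library 1 Atf3 was also called higher in PDGF-NS than in IGF-NS (0.014). Ppp1r15a was called lower in IGF-NS than in control under median ratio scaling (0.033) and quantile normalization (0.044), and higher in PDGF-NS than in IGF-NS without control library 1 (0.037).

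In the folate and glycine list, 4 of 14 genes rose and 1 fell in IGF-NS, and 3 rose and 3 fell in PDGF-NS. The shares called were 35.7% and 42.9%, beside 24.9% and 31% of all genes. Aldh1l2, a mitochondrial folate dehydrogenase, was 21.0, 17.8 and 17.5 FPKM in controls, 47.2, 42.6 and 39.9 in the IGF-NS set, and 9.41, 20.6 and 18.6 in the PDGF-NS set. It rose by 1.16 in IGF-NS (limma adjusted p = 0.0072) and was −1.43 in PDGF-NS minus IGF-NS (adjusted p = 0.0029). Sfxn1, a mitochondrial serine transporter, rose in both sets, by 1.04 and 1.53 (adjusted p = 0.00042 and 2.2e-05). Of the mitochondrial synthetases 3 of 15 rose in IGF-NS and 1 in PDGF-NS, or 20% and 6.67%, beside 24.9% and 31% of all genes called. Between treated sets limma called 0 of 15, beside 15.9% of all genes, with 1 of the 15 lower at an unadjusted p under 0.05.

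Upstream of ATF4, 3 of 15 genes for eIF2, its kinases and regulators rose in IGF-NS, and 3 rose and 1 fell in PDGF-NS. The shares called were 20% and 26.7%, beside 24.9% and 31% of all genes. The eIF2 kinase Eif2ak2 rose by 0.99 and 1.11 in IGF-NS and PDGF-NS (limma adjusted p = 0.0094 and 0.0037). Eif2b2 rose by 0.75 and 0.76 (adjusted p = 0.0056 and 0.0034), and Eif2s2 by 0.81 in IGF-NS (0.01). These rises held under each of the 20 alternatives. Gcn1l1 fell by 0.58 in PDGF-NS (adjusted p = 0.034), a call lost under 8 of 20. Eif2ak3, the kinase PERK of the endoplasmic reticulum, was 18.9, 22.1 and 21.7 FPKM in controls, 18.1, 17.3 and 20.1 in the IGF-NS set, and 26.9, 31.3 and 31.1 in the PDGF-NS set, a rise of 0.49 in PDGF-NS (limma adjusted p = 0.013, and 0.052 and 0.058 without PDGF-NS library 2 or 3). Eif2ak4, the amino acid sensor GCN2, was not called. Myc, which also drives synthetase and serine genes, fell by 2.08 in PDGF-NS, from 104, 82.2 and 66.7 FPKM in controls to 18.8, 19.6 and 18.0 (adjusted p = 1.5e-05), and was −0.44 in IGF-NS minus control (adjusted p = 0.069). The latter was called under median ratio scaling (0.022), under quantile normalization (0.035) and without control library 3 (0.025). Sesn3, another sestrin, rose by 2.06 and 1.85 in IGF-NS and PDGF-NS (adjusted p = 0.00049 for each).

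**Figure D5:**
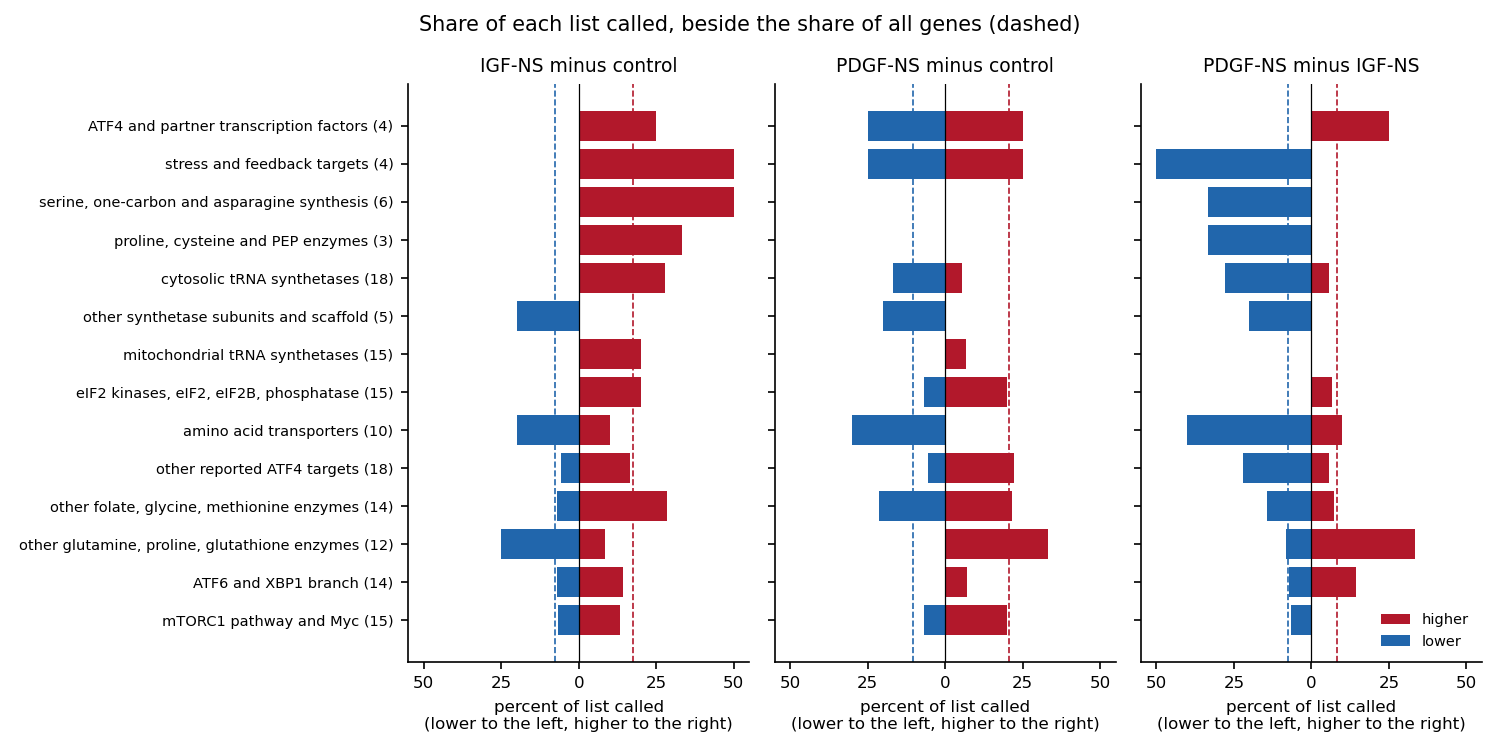
Share of each list called higher (right, red) and lower (left, blue) in the 3 comparisons, in percent, with the number of genes tested in brackets and dashed lines at the share of all genes. Serine, one-carbon and asparagine genes reach 50% higher in IGF-NS minus control (17.4% of all genes) and 0% in PDGF-NS minus control (20.7%). Of 12 glutamine, proline and glutathione enzymes, 4 rose (33.3%) and 0 fell in PDGF-NS minus control, beside 20.7% and 10.2% of all genes. In IGF-NS minus control 1 of them rose and 3 fell, beside 17.4% and 7.48% of all genes.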

How the data were processed

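RNA from 9 libraries of S31 cells, 3 per group, was sequenced with a Lexogen SENSE mRNA kit, per the labels' protocols. The authors deposited FPKM per gene and library. GSNAP and Cufflinks ran upstream, per the submitters' processing notes. Their versions, the genome build and the annotation were not given in the sources used here. FPKM are not counts, so the number of reads is unknown, and Cufflinks could split reads between near-identical genes. Depth relative to control library 1, estimated from ratios of low FPKM values, ran from 0.66 to 1.33. The value 999999999 in 10 cells was read as a failed estimate and its 4 genes were left out, as were 2 duplicated all-zero rows.

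Members and lists were chosen with earlier results of these data known. The 11376 genes whose mean over the libraries reached 1 FPKM were tested with limma 3.58.1 (R 4.3.3, limma-trend) on log2(FPKM + 1), with group as the only term, in 3 two-sided contrasts. Benjamini-Hochberg adjustment ran over all genes, and an adjusted p under 0.05 was a call. The procedure was also run on simulated data, but the outcome is not given here and is not used to support the calls. Every member that met the rule was named. From each related list the rule allowed up to 4 called genes with the largest change per contrast and a few set regulators, of which the text prints part. Alternatives were pseudocounts of 0.1 and 5, no filter or a mean of 5 FPKM, 3 scalings, a replicate block, limma without trend, robust variances, only the groups compared, and leaving out each library. Promoters were read from RefSeq (GRCr8), matched by symbol, identifier or synonym, and were not matched to the build of the FPKM table, which is not known.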

Additional observations from a re-analysis of the deposited data

How the results depend on the processing

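Counts of calls are given as higher or lower. Median ratio scaling and quantile normalization changed IGF-NS minus control to 6 and 7 members higher (12 as reported), 1 and 0 members lower (0), 17 and 17 related genes lower (10), and 1137 and 1214 of all genes higher (1976). In PDGF-NS minus control, median ratio, quantile and common sum scaling each gave 8 members lower (5), and 18, 17 and 18 related genes lower (10), and quantile normalization gave 1752 of all genes lower (1166). In PDGF-NS minus IGF-NS common sum scaling gave 6 related genes higher (10) and 1480 of all genes lower (859). Why scalings differ was not tested. Whether replicate numbers pair the libraries is not known. After centring within groups, correlations ran from −0.28 to 0.25 for same-numbered libraries and from −0.51 to 0.41 for others. Centring within groups of 3 ties the libraries of a group together, so these values cannot exclude pairing. With the replicate block, members higher and lower were 11 and 0 in IGF-NS minus control, 3 and 3 in PDGF-NS minus control, where the calls of Cars and Vars were lost, and 2 and 9 in PDGF-NS minus IGF-NS.

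Leaving out 1 library at a time gave these ranges. In IGF-NS minus control, members were 7 to 12 higher (7 without IGF-NS library 1 or 2) and 0 to 1 lower (1 without IGF-NS library 3), related genes 17 to 20 and 6 to 10 (6 without IGF-NS library 1), and all genes 1172 to 1967 (1172 without IGF-NS library 1) and 580 to 990. In PDGF-NS minus control, members were 3 to 5 and 2 to 6, related genes 14 to 20 and 8 to 11, and all genes 1520 to 2491 (1520 without PDGF-NS library 3) and 840 to 1266. In PDGF-NS minus IGF-NS, members were 0 to 2 (0 without PDGF-NS library 3, 1 without IGF-NS library 1 or 2) and 6 to 13 (6 without IGF-NS library 1), related genes 5 to 12 and 9 to 15 (both lowest without PDGF-NS library 3), and all genes 541 to 1101 and 468 to 1051 (both lowest without PDGF-NS library 3). The cause was not tested, though each such fit holds fewer libraries. Over all named genes, of 4971 single values under an alternative 4670 kept their side of the threshold, 230 lost a call, 71 gained one and 0 reversed while called. FPKM carry no read number, so no counting limit is given.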
